A study of Mus musculus with 20 samples.

Results

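Chemokines are small secreted proteins that draw cells carrying matching receptors. In the study, single cells were taken from the spleens and lymph nodes of transgenic mice that model B-cell leukemia, and 8 chemokine genes, of the 31053 genes in the count matrices, are described here: Ccl3, Ccl4, Ccl5, Ccl22, Ccl17, Cxcl9, Cxcl10 and Cxcl16. The members were chosen by name as chemokines of B, T and myeloid cells, with earlier results of these data known. Each was followed in every library as CPM, the gene's unique molecular identifiers (UMIs, 1 per captured transcript) divided by all UMIs of the same cell class in that library and scaled to the usual CPM total. The 4 classes were B cells, T cells, monocytes/macrophages and neutrophils, assigned from marker counts that included none of the 8 genes.

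The 20 libraries came from 13 C57BL/6N mice at the study's criteria for removal, and live cells were loaded without selection for a cell type. The spleens were those of 5 mice of the Eµ-PRMT5 genotype, 4 of Eµ-TCL1 and 4 of Eµ-PRMT5/TCL1, and the lymph nodes those of 3 Eµ-TCL1 and 4 double-transgenic mice. Eµ-PRMT5 mice carry human PRMT5, an arginine methyltransferase, under a mouse immunoglobulin heavy chain promoter and the µ enhancer, so that the transgene is driven in B cells. Eµ-TCL1 mice carry human TCL1, an oncogene used to model chronic lymphocytic leukemia, under the same kind of control, and Eµ-PRMT5/TCL1 mice carry both transgenes from a cross. Every mouse carried at least 1 transgene, and no wild-type library was analysed here. Neither transgene can be checked, because the counts were made against the mouse genome alone. The 7 lymph nodes share their mouse with a spleen, as the sample titles show, and no ages were given in the labels. The titles of Eµ-PRMT5/TCL1 spleen 1 and lymph node 2, from 1 mouse, carry the suffix RT, whose meaning the labels do not give.

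Ccl3, Ccl4 and Ccl5 are inflammatory chemokines that draw T cells and myeloid cells, and Ccl3 and Ccl5 bind Ccr1 on myeloid cells. Ccl17 and Ccl22 are the ligands of Ccr4, a receptor of regulatory and helper T cells, and in chronic lymphocytic leukemia Ccl3, Ccl4, Ccl17 and Ccl22 are known as products of activated leukemic B cells. Cxcl9 and Cxcl10 are induced by interferon and bind Cxcr3 on activated T cells, and Cxcl16 is a membrane-bound ligand of Cxcr6 that is released by the protease Adam10.

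The genes lie in clusters. In GRCm38 with the GENCODE annotation, Ccl5 (ENSMUSG00000035042, chr11:83525778-83530518), Ccl3 (ENSMUSG00000000982, chr11:83647844-83649355) and Ccl4 (ENSMUSG00000018930, chr11:83662584-83664683) lie on chromosome 11, with 13.2 kb between Ccl3 and Ccl4 and 117 kb between Ccl5 and Ccl3. Cxcl16 (ENSMUSG00000018920, chr11:70453983-70459984) lies apart from them on the same chromosome. Ccl22 (ENSMUSG00000031779, chr8:94745590-94751699) and Ccl17 (ENSMUSG00000031780, chr8:94810453-94812036) are 58.8 kb apart, and Cxcl9 (ENSMUSG00000029417, chr5:92321347-92328079) and Cxcl10 (ENSMUSG00000034855, chr5:92346638-92348889) are 18.6 kb apart. These coordinates span whole genes, exons and introns together.

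The promoters of these neighbouring pairs are shown because a part of the cells with 1 gene also held the other (values are given with each pair). The windows are the 250 bases before the RefSeq start in GRCm38.p6: Cxcl9 at chr5:92328080-92328329 and Cxcl10 at chr5:92348890-92349139, both on the minus strand, and Ccl22 at chr8:94745434-94745683 and Ccl17 at chr8:94810203-94810452, both on the plus strand. Capitals mark matches, on either strand, to the interferon-stimulated response element (GAAA and GAAA with NN between), the NF-kB motif (GGG and TTCC with NNN between) or the gamma-activated site (TTCNNNGAA), and no matches overlapped.
Cxcl9: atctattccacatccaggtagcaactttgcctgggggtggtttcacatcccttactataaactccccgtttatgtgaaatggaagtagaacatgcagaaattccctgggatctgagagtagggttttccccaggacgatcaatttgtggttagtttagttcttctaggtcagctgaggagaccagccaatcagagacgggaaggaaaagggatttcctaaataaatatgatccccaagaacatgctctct
Cxcl10: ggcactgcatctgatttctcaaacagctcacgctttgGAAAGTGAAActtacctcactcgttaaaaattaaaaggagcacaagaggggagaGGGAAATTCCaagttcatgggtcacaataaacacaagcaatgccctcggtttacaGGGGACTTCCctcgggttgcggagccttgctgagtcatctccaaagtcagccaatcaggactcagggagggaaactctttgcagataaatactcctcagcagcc
Ccl22: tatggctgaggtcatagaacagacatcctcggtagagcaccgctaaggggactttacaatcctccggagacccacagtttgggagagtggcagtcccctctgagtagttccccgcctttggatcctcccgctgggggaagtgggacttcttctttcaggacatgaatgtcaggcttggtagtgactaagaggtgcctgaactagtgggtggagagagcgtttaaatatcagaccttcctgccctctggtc
Ccl17: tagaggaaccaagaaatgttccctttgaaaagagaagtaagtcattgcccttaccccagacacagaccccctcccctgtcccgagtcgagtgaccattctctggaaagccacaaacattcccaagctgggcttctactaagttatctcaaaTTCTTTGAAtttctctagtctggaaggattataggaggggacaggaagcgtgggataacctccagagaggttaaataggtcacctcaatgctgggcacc
The Cxcl10 window held 1 interferon-stimulated response element, from base -213 to -204, and 2 NF-kB matches, from -159 to -150 and from -104 to -95. The Ccl17 window held 1 gamma-activated site from -99 to -91. The Cxcl9, Ccl22 and Ccl3 windows held none of these letters. Over all 32851 RefSeq promoter windows of this length, 2.98% held the response element, 4.65% the NF-kB letters and 7.02% the gamma-activated site. A match describes letters, not a site in use. Promoters of Ccl4, Ccl5 and Cxcl16 are not shown.

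After filtering, 84231 cells were kept, from 688 to 7631 per library, with a median depth per library of 3550 to 14306 UMIs. The B class held 28009 spleen and 11534 lymph node cells, the T class 16834 and 13916, the monocyte/macrophage class 1320 and 141, and the neutrophil class 2620 and 203. Every B library contained all 6 B markers, every T library all 8 T markers and every neutrophil library all 10 neutrophil markers, while monocyte/macrophage libraries contained 8 to 12 of 12. The same markers assigned the cells, so this is no check of the classes. B libraries also contained 5 to 8 of the T markers, at a summed median of 64.4 CPM against 3254 CPM in T libraries. Neutrophil libraries contained 4 to 6 of the B markers, at 118 CPM against 4757 CPM in B libraries. A class was used in a library where it held at least 20 cells, which left the monocytes/macrophages of 3 lymph nodes and the neutrophils of 2. Eµ-PRMT5 spleen 4 stood apart, with 53 T cells and 18.6% of its cells holding markers of several classes. Results that rest on it are given without it as well, except for the pooled shares of UMIs. The libraries shared 4559 cell barcodes over all pairs, against 4537 expected by chance. A level per class cannot separate fewer expressing cells from fewer transcripts per cell, so shares of cells and counts per cell are given beside the levels that matter.

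The classes that held most UMIs differed between the genes. Over the 13 spleens pooled, B cells held 93.6% of Ccl17 UMIs and 88.0% of Ccl22 UMIs, and T cells held 85.6% of Ccl5 and 44.4% of Ccl4. Neutrophils held 59.8% of Ccl3 UMIs, and monocytes/macrophages held 51.6% of Cxcl16. Cxcl9 and Cxcl10 had no majority class in spleen, where granulocyte-monocyte progenitors held 30% of Cxcl9 and 24.3% of Cxcl10. Of the 6160 spleen Cxcl9 UMIs, 4202 were in Eµ-PRMT5 spleens, where spleen 4 stood at 63.9 CPM over all cells (next 3.43). Its progenitors held 1296 of the 1837 Cxcl9 UMIs counted in the progenitors of 6 spleens. Cells with markers of several classes held a median of 43.8% of Cxcl9 over the 8 spleens with enough of its UMIs. In lymph nodes the monocytes/macrophages held 75.5% of Cxcl9 and T cells held 50.1% of Cxcl10. The lymph nodes held 364 Cxcl9 UMIs in all, 345 of them in Eµ-PRMT5/TCL1 and 19 in Eµ-TCL1 mice. The pooled shares follow the number of cells loaded from each class and the libraries with most UMIs of the gene. The CPM of a class is instead divided by the UMIs of that class in the library. CPM over all cells together does follow the makeup of the library.

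**Figure D1:**
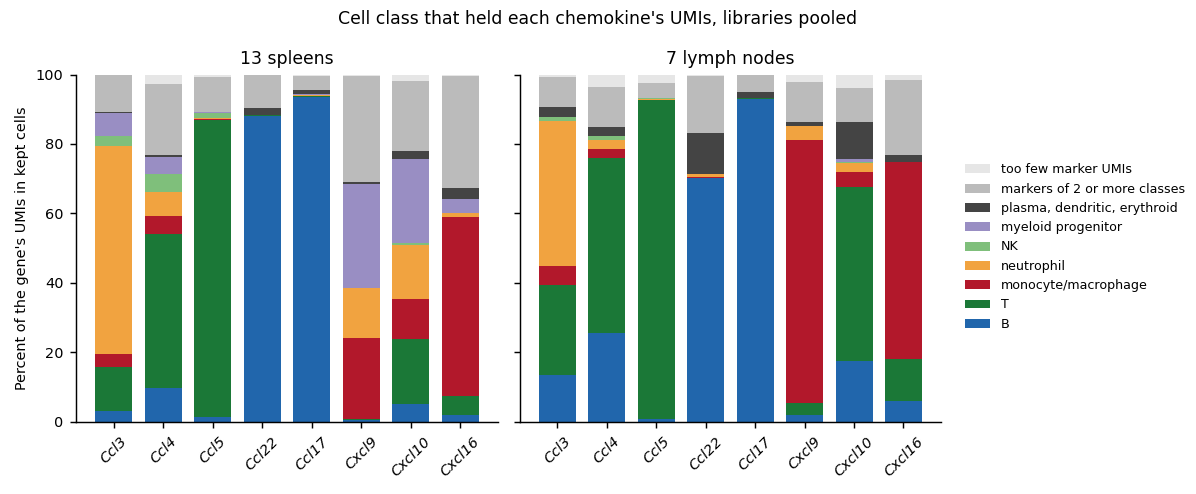
Percent of each chemokine's UMIs (y axis) held by each cell class, with 13 spleens pooled on the left and 7 lymph nodes pooled on the right. Ccl17, Ccl22 and Ccl5 each have 1 class that holds most UMIs in both tissues, while Cxcl9 and Cxcl10 are spread over several classes in spleen.

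Ccl5, an inflammatory chemokine made by T cells and natural killer cells, was highest in T cells, of the 4 classes, in every library. T cells held 41.1% to 96.4% of the Ccl5 UMIs of a spleen, and cells with markers of several classes held up to 44.3%. T-cell levels were 5518, 9086, 10899, 5211 and 7309 CPM in Eµ-PRMT5 spleens 1 to 5, 16329.8, 11856, 9186 and 9331 CPM in Eµ-TCL1 spleens 1 to 4, and 8505, 12384, 13125 and 4051 CPM in Eµ-PRMT5/TCL1 spleens 1 to 4. The medians of the other classes in spleen were 42.0 CPM in B cells, 59.4 CPM in monocytes/macrophages and 84.6 CPM in neutrophils. No T library overlapped any library of those classes. In edgeR's quasi-likelihood test over 10577 genes, with the library as a block and Benjamini-Hochberg adjustment, Ccl5 was lower in B than in T cells by a log2 change of -7.60 ± 0.63 (SE), higher in T cells than in monocytes/macrophages by 7.20 ± 0.66 and higher than in neutrophils by 6.09 ± 0.62. A median of 97.6% of spleen T cells held a Ccl5 UMI (range 55.1% to 99.8%), and 88.7% after each cell was thinned to 1000 UMIs. The same share was 5.23% in B cells, at median depths of 5143 UMIs for T and 7708 UMIs for B cells.

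The Ccl5 level of spleen B cells, monocytes/macrophages and neutrophils was below that of empty droplets. Barcodes of fewer than 100 UMIs, taken as empty droplets, held 762 to 6257 CPM of Ccl5 in spleens. The B cells of 0 of 13 spleens exceeded their own library's empty droplets, nor did the monocytes/macrophages of any of 12 or the neutrophils of any of 12, while the T cells exceeded them in 13 of 13. The B-cell level was a median 0.450% of the T-cell level in the same library, beside 0.611% for Nkg7 and 0.378% for Ms4a4b, genes of T and natural killer cells. In monocytes/macrophages the 3 medians were 0.654% for Ccl5, 0.106% for Nkg7 and 1.86% for Ms4a4b, and in neutrophils they were 0.985%, 4.07% and 0.706%. These Ccl5 UMIs were in few cells. Over both tissues, 2111 of 39543 B cells held 19654 UMIs, with up to 915 in a cell. For monocytes/macrophages it was 171 of 1404 cells (up to 117) and for neutrophils 289 of 2801 (up to 442). The top 1% of cells of a library held a median of 85.1%, 61.8% and 79.6% of them in the 3 classes. The part of free RNA in these levels was not tested. Natural killer cells, counted in 4 spleens with 22 to 40 cells each, held 17042, 21224 and 13395 CPM in Eµ-PRMT5 spleens 1, 2 and 3 and 19211 CPM in Eµ-PRMT5/TCL1 spleen 3. Each of these exceeded the T-cell level of its own library.

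**Figure D2:**
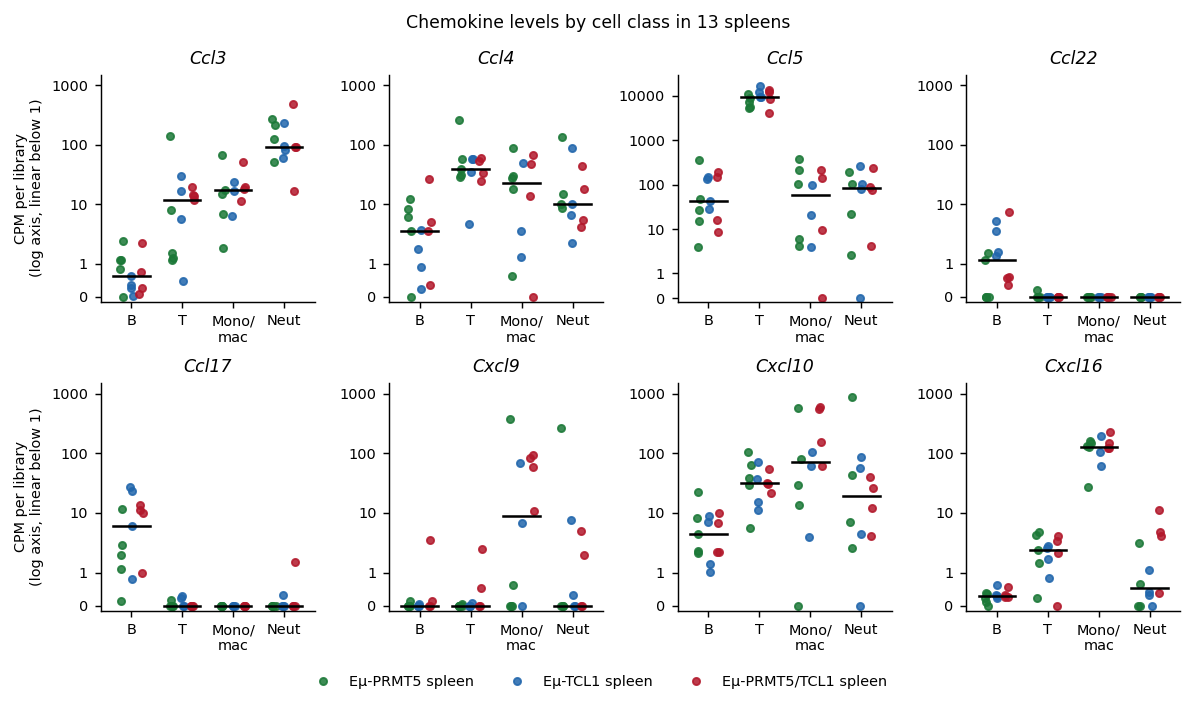
CPM of each chemokine (y axis, logarithmic above 1 and linear below) in B cells, T cells, monocytes/macrophages (Mono/mac) and neutrophils (Neut) of the 13 spleens, with 1 point per library colored by genotype and a bar at the median. Ccl5 in T cells and Cxcl16 in monocytes/macrophages lie clear of the B cells, and Ccl22 and Ccl17 are at or near 0 outside B cells.

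Ccl3, a ligand of Ccr1, had the highest spleen median of the 4 classes in neutrophils. Neutrophil levels were 126, 271, 51.3 and 215 CPM in Eµ-PRMT5 spleens 1 to 4, 93.0, 58.7, 81.4 and 227 CPM in Eµ-TCL1 spleens 1 to 4, and 16.5, 92, 486 and 91.3 CPM in Eµ-PRMT5/TCL1 spleens 1 to 4. The groups overlapped throughout, and the highest and the lowest library were both Eµ-PRMT5/TCL1. Lymph node neutrophils, counted in 2 libraries, held 108 CPM in Eµ-TCL1 lymph node 3 and 792 CPM in Eµ-PRMT5/TCL1 lymph node 3. The spleen medians were 92.5 CPM in neutrophils, 17.2 CPM in monocytes/macrophages, 11.8 CPM in T cells and 0.625 CPM in B cells. Ccl3 was lower in B cells than in neutrophils by a log2 change of -8.51 ± 0.65, lower in T cells than in neutrophils by -4.35 ± 0.56, and lower in monocytes/macrophages than in neutrophils by -3.64 ± 0.60, each called in edgeR's quasi-likelihood test. T cells and monocytes/macrophages, neighbours in that order, differed by -0.71 on the log2 scale, which was not called. Neutrophils exceeded their empty droplets in 12 of 12 spleens, and B cells in 0 of 13.

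Within neutrophils the Ccl3 transcripts were held by a part of the cells. Over 2801 neutrophils of the 14 libraries used, 568 cells held 4363 Ccl3 UMIs, and 1 cell held 207. The top 1% of neutrophils in a library held a median of 39.5% of them. That share was 61.5% in monocytes/macrophages, 91.2% in T cells and 100% in B cells. Where under 1% of cells hold a UMI, as at the B-cell median below, the top 1% hold all of them. These shares therefore do not rank the classes by evenness. The median share of spleen neutrophils with a Ccl3 UMI was 13.4% (5.99% thinned), against 0.266% of B cells. The monocytes/macrophages had a near share of 11.6%, or 1.66% thinned. The median depth was 9723 UMIs in these cells and 7541 in neutrophils.

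Ccl4, an inflammatory chemokine related to Ccl3, had the highest spleen median of the 4 classes in T cells. T-cell levels were 30.7, 56.5, 28.9, 262 and 39.3 CPM in Eµ-PRMT5 spleens 1 to 5, 56.3, 57.1, 4.65 and 35.0 CPM in Eµ-TCL1 spleens 1 to 4, and 33.8, 24.5, 59.0 and 52.4 CPM in Eµ-PRMT5/TCL1 spleens 1 to 4. The value of 262 CPM came from the 53 T cells of Eµ-PRMT5 spleen 4, and without it the spleens ranged from 4.65 to 59.0 CPM. Spleen medians were 39.3 CPM in T cells, 22.5 CPM in monocytes/macrophages, 10.1 CPM in neutrophils and 3.58 CPM in B cells. B cells were lower than T cells by a log2 change of -3.56 ± 0.62 in edgeR's quasi-likelihood test, and lower than monocytes/macrophages by -2.24 ± 0.68 (adjusted p = 0.00417). T cells and monocytes/macrophages differed by 1.31 ± 0.65 (adjusted p = 0.0720), which did not pass. T cells exceeded their empty droplets in 9 of 13 spleens. Natural killer cells, outside the 4 classes, had a median of 173 CPM of Ccl4 over 4 spleens, above that of the T cells over 13. They ranged from 23 to 2965 CPM of Ccl4 and from 6.10 to 1292 CPM of Ccl3, with the highest value of each in Eµ-PRMT5 spleen 1.

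Ccl3 and Ccl4, which lie side by side in the genome, overlapped unevenly by class. In T cells 379 cells held Ccl3, 1536 held Ccl4 and 232 held both, which is 61.2% of the Ccl3 cells and 15.1% of the Ccl4 cells. In neutrophils 572 held Ccl3, 109 held Ccl4 and 77 held both, which is 13.5% of the Ccl3 cells and 70.6% of the Ccl4 cells. These counts pool all 20 libraries as a description.

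Ccl22, a ligand of Ccr4, was found mainly in B cells and was scarce. Cells with markers of several classes held up to 34.7% of its UMIs in a spleen and 45.7% in a lymph node. Dendritic cells, 48 in spleens and 15 in lymph nodes, reached 20 cells in no library, so their levels of Ccl22 and Ccl17 were not assessed. B-cell levels were 0, 0, 0, 1.5 and 1.17 CPM in Eµ-PRMT5 spleens 1 to 5, 1.56, 1.36, 3.55 and 5.2 CPM in Eµ-TCL1 spleens 1 to 4, and 7.49, 0.568, 0.594 and 0.350 CPM in Eµ-PRMT5/TCL1 spleens 1 to 4. No Ccl22 UMI was found in 1304 spleen monocytes/macrophages, whose 3-count floor over the group is 0.221 CPM, nor in 2617 spleen neutrophils. Spleen T cells held 2 UMIs in all. In B cells 303 of 39543 cells held 1092 UMIs, with up to 50 in a cell, and the B-cell level exceeded the empty droplets in 6 of 13 spleens and 6 of 7 lymph nodes.

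Ccl17, the second Ccr4 ligand, was also found mainly in B cells. B-cell levels were 0.129, 1.16, 2.90, 2.00 and 11.7 CPM in Eµ-PRMT5 spleens 1 to 5, 6.00, 0.819, 27.1 and 23.6 CPM in Eµ-TCL1 spleens 1 to 4, and 11.4, 13.4, 10.1 and 1.00 CPM in Eµ-PRMT5/TCL1 spleens 1 to 4. Its 3284 B-cell UMIs were in 2108 cells, with at most 13 in a cell. A median of 4.15% of spleen B cells held a UMI (0.768% thinned), and the median over libraries was 0% in each of the other 3 classes. B cells exceeded their empty droplets in 11 of 13 spleens, and no Ccl17 UMI was found in spleen monocytes/macrophages. Ccl22 and Ccl17 were too low to pass the filter on low counts in the comparison of classes, so their class differences were tested only without that filter, where B cells were higher than T cells for Ccl17 (log2 change 6.85 ± 0.48) and for Ccl22 (4.91 ± 0.77) in edgeR's quasi-likelihood test, beside 40.8% of genes called. Without the filter 7 members were called between B cells and monocytes/macrophages (42.1% of genes), 8 between B cells and neutrophils (48.2%) and 4 between T cells and neutrophils (47.3%). Of the 303 B cells with Ccl22, 106 also held Ccl17, or 35.0%, while 5.33% of all B cells held Ccl17. The same 106 cells were 5.03% of the B cells with Ccl17, while 0.766% of all B cells held Ccl22. These cell counts pool all libraries, whose levels differ, as a description.

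Cxcl9, an interferon-induced ligand of Cxcr3, was at 0 in some libraries and high in others. Monocyte/macrophage levels were 0.620, 0, 0, 382 and 0 CPM in Eµ-PRMT5 spleens 1 to 5, 69.7, 6.69 and 0 CPM in Eµ-TCL1 spleens 1, 3 and 4, and 82.8, 95.4, 58.6 and 10.9 CPM in Eµ-PRMT5/TCL1 spleens 1 to 4. All 4 Eµ-PRMT5/TCL1 spleens held Cxcl9 while 4 of the other 8 were at 0, and the groups overlapped. The 82.8 CPM of Eµ-PRMT5/TCL1 spleen 1 came from 1 of its 20 monocytes/macrophages. Of the spleens at 0, Eµ-PRMT5 spleens 2, 3 and 5 had only 27, 27 and 22 of these cells, and Eµ-TCL1 spleen 4 had 112. The lymph nodes with enough cells held 0 CPM in Eµ-TCL1 lymph node 3 and 211 and 1152 CPM in Eµ-PRMT5/TCL1 lymph nodes 3 and 4, from 27 to 41 cells each. The median over spleens was 8.78 CPM in this class and 0 in the other 3, and monocytes/macrophages exceeded their empty droplets in 7 of 12 spleens. Granulocyte-monocyte progenitors, outside the 4 classes, had a median of 31.9 CPM over 6 spleens. Cxcl9 did not pass the filter on low counts, and without it B cells were lower than monocytes/macrophages by a log2 change of -8.08 ± 0.81 in edgeR's quasi-likelihood test.

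Cxcl10, its neighbour and the second Cxcr3 ligand, had UMIs in every class. Monocyte/macrophage levels were 79.9, 0, 29.9, 577 and 13.6 CPM in Eµ-PRMT5 spleens 1 to 5, 60.7, 104 and 3.90 CPM in Eµ-TCL1 spleens 1, 3 and 4, and 603, 60.8, 154 and 559 CPM in Eµ-PRMT5/TCL1 spleens 1 to 4. Spleen medians were 70.3 CPM in monocytes/macrophages, 32 CPM in T cells, 19.3 CPM in neutrophils and 4.43 CPM in B cells, and the progenitors of 6 spleens had a median of 183 CPM. B cells were the lowest of the 4 classes, below T cells by a log2 change of -3.08 ± 0.59 and below monocytes/macrophages by -4.36 ± 0.66 in edgeR's quasi-likelihood test. T cells and monocytes/macrophages differed by -1.28 ± 0.63 (adjusted p = 0.0691), which did not pass. T cells exceeded the empty droplets in 5 of 13 spleens and monocytes/macrophages in 8 of 12, while B cells exceeded them in 0 of 13.

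Eµ-PRMT5 spleen 4 held the highest Cxcl9 and Cxcl10 of its group in several myeloid classes at once. Its neutrophils held 874 CPM of Cxcl10, against 0 to 86.3 CPM in the neutrophils of the other spleens, and 267 CPM of Cxcl9, against 0 to 7.68 CPM. Its progenitors held 726 CPM of Cxcl10 and 341 CPM of Cxcl9, and the other 5 spleens with enough progenitors held 14.7 to 313 CPM and 0 to 76.9 CPM. Without this library the Eµ-PRMT5 monocytes/macrophages held 0 to 0.620 CPM of Cxcl9 and 0 to 79.9 CPM of Cxcl10. The part of its mixed cells and few T cells in these values was not tested. Of its 302 monocytes/macrophages, 162 held Cxcl9, 158 held Cxcl10 and 96 held both. Over all libraries, 300 monocytes/macrophages held Cxcl9 and 139 of these, or 46.3%, also held Cxcl10, against 23.2% of all 1461. Without Eµ-PRMT5 spleen 4 this was 43 of 138 cells, or 31.2%, against 15.6% of all 1159. In neutrophils 114 of the 132 Cxcl9 cells, or 86.4%, also held Cxcl10, against 12.8% of all neutrophils. Of these cells 112 and 104 were from Eµ-PRMT5 spleen 4, and without it 10 of 20 neutrophils with Cxcl9 also held Cxcl10, against 7.09% of all.

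Cxcl16, the membrane-bound ligand of Cxcr6, was highest in monocytes/macrophages, of the 4 classes, in each of the 12 spleens with enough of these cells. Monocyte/macrophage levels were 132, 146, 129, 161 and 27.1 CPM in Eµ-PRMT5 spleens 1 to 5, 61.4, 104 and 196 CPM in Eµ-TCL1 spleens 1, 3 and 4, and 124, 149, 123 and 228.3 CPM in Eµ-PRMT5/TCL1 spleens 1 to 4. All 12 lay above every B, T and neutrophil library, whose medians were 0.304, 2.42 and 0.529 CPM. The log2 changes were -8.67 ± 0.35 for B cells and -5.78 ± 0.30 for T cells against monocytes/macrophages, and 5.80 ± 0.37 for monocytes/macrophages against neutrophils, in edgeR's quasi-likelihood test. A median of 49.5% of these cells held a UMI, or 11.4% when thinned, and the level exceeded the empty droplets in 12 of 12 spleens. In lymph nodes the values were 194 CPM in Eµ-TCL1 lymph node 3 and 129 and 488 CPM in Eµ-PRMT5/TCL1 lymph nodes 3 and 4.

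Read against all genes, these class differences were common. Ccl3, Ccl4, Ccl5, Cxcl10 and Cxcl16 passed the filter on low counts. All 5 were called between B and T cells, where 54.4% of the 10577 genes were called, and all 5 between B cells and neutrophils, where 75.7% were. Between B cells and monocytes/macrophages 4 were called beside 66.9% of genes, the exception being Ccl5 (log2 change -0.39 ± 0.54). For T cells against monocytes/macrophages (Ccl5 and Cxcl16), T cells against neutrophils (Ccl5 and Ccl3) and monocytes/macrophages against neutrophils (Cxcl16 and Ccl3), 2 each were called beside 66.8%, 75.4% and 60.1% of genes. Without Eµ-PRMT5 spleen 1, 2, 3 or 5, T cells and monocytes/macrophages gave 4 calls. Libraries of the compared classes did not overlap for Ccl5 between B and T cells (6.05% of genes), for Cxcl16 between B cells and monocytes/macrophages (11.5%) and for Ccl3 between B cells and neutrophils (22.7%). They also did not overlap for Ccl5 and Cxcl16 between T cells and monocytes/macrophages (12.7%), for Ccl5 between T cells and neutrophils (24.2%) and for Cxcl16 between monocytes/macrophages and neutrophils (12%).

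The matching receptors were found mainly in T cells and myeloid cells. In spleen, Cxcr3, the receptor of Cxcl9 and Cxcl10, was at 104 CPM and Cxcr6, the receptor of Cxcl16, at 78.9 CPM in T cells, with medians under 1 CPM in the other 3 classes. Ccr4, the receptor of Ccl17 and Ccl22, was at 0.526 CPM in T cells, with no UMI in 4 of the 13 T libraries and at most 8.29 CPM. Ccr1, which binds Ccl3 and Ccl5, had medians of 90.2 CPM in monocytes/macrophages, 77.7 CPM in neutrophils, 19.8 CPM in B cells and 0.210 CPM in T cells, and was higher in B than in T cells by a log2 change of 5.83 ± 0.62. Of the 12 receptors and partners fixed as a list, 8 were tested, and 5, 4, 2, 6, 5 and 3 of these were called between B and T cells, B cells and monocytes/macrophages, B cells and neutrophils, T cells and monocytes/macrophages, T cells and neutrophils, and monocytes/macrophages and neutrophils. Of all genes, 54.4%, 66.9%, 75.7%, 66.8%, 75.4% and 60.1% were called in that order. The interferon gamma gene Ifng was lower in B than in T cells by -6.12 ± 0.43 in edgeR's quasi-likelihood test.

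Of the 20 further chemokine genes fixed as a list, 6 were tested, and in the same order of comparisons 2, 6, 5, 6, 6 and 5 were called, beside the same 54.4%, 66.9%, 75.7%, 66.8%, 75.4% and 60.1% of all genes. Ccl6 (556 CPM) and Ccl9 (271 CPM) had their highest spleen median in monocytes/macrophages, the neutrophil-attracting Cxcl2 in neutrophils (248 CPM) and Xcl1, a T-cell chemokine, in T cells (28.2 CPM). These 4 genes were near 0 in B cells, with B-cell medians of 0.275, 0.0555, 0.142 and 0.142 CPM for Ccl6, Ccl9, Cxcl2 and Xcl1. Ccl2 was lower in B cells than in monocytes/macrophages by a log2 change of -10.39 ± 0.59.

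The comparison of genotypes in spleen asks whether the B-cell transgenes went with other chemokine levels in the leukemic or the bystander cells. None of the 8 genes passed it. Over 15 contrasts, 3 pairs of genotypes in each of 4 classes and in all cells together, edgeR's quasi-likelihood test called 0 of 87 member tests, while 2 had an unadjusted p under 0.05, as 7.11% of the tests over all genes did. Of all genes, 0.0168% were called between Eµ-PRMT5 and Eµ-TCL1 B cells, 0.0186% between their T cells, 0.00729% between Eµ-PRMT5/TCL1 and Eµ-PRMT5 over all cells and 0% in the other 12 contrasts. DESeq2 called 1 member test. No member had groups that did not overlap. For Eµ-PRMT5 against Eµ-TCL1, such groups were found in 5.25% of genes in B cells, 2.14% in T cells, 2.33% in monocytes/macrophages, 2.22% in neutrophils and 4.84% in all cells. For Eµ-PRMT5/TCL1 against Eµ-TCL1 the shares were 3.77%, 3.45%, 3.7%, 1.72% and 2.28%, and for Eµ-PRMT5/TCL1 against Eµ-PRMT5 they were 1.87%, 1.14%, 1.29%, 1.08% and 2.19%. None of the tested receptors, partners and other chemokines was called either.

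**Figure D3:**
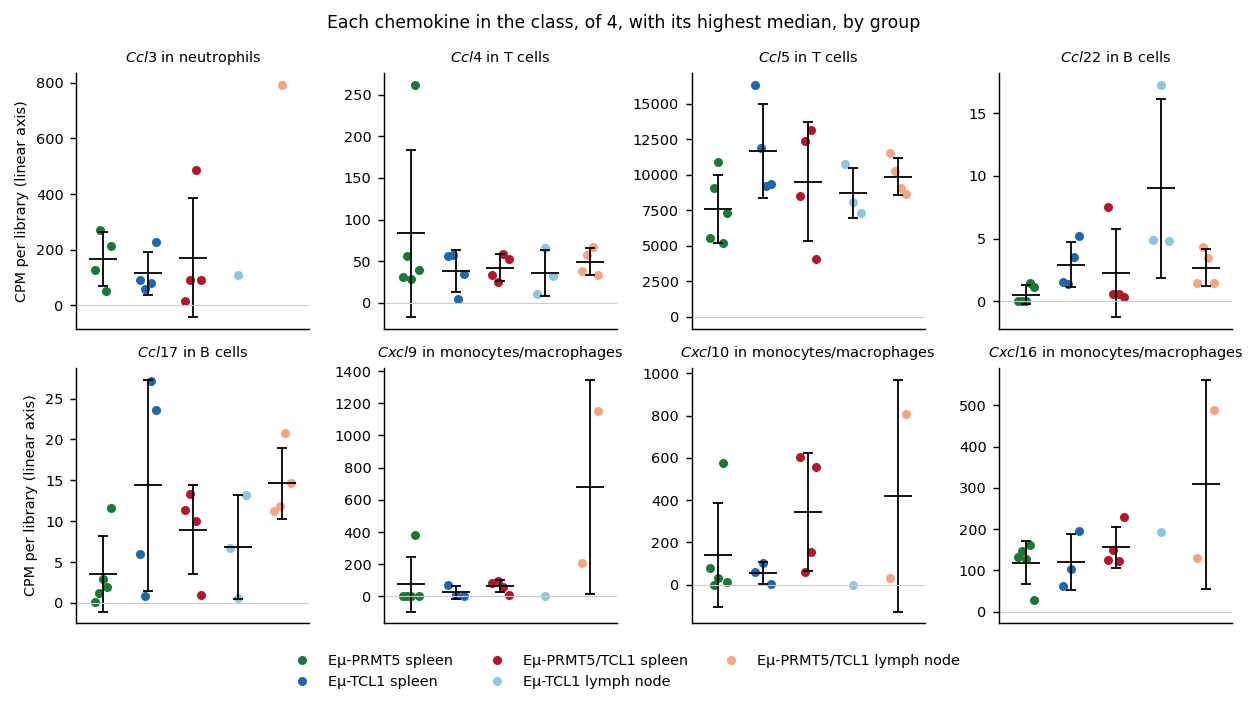
CPM of each chemokine (y axis, linear) in the class, of the 4, with its highest spleen median, by genotype and tissue, with 1 point per library and the mean ± SD in black where a group has 2 or more libraries. The groups overlap in spleen for every gene, and 1 Eµ-PRMT5 spleen stands above the others of its group for Ccl4, Cxcl9 and Cxcl10.

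The member that DESeq2 called in spleen was the Ccr4 ligand Ccl17. In all cells together Ccl17 stood at 0.137, 0.408, 1.15, 1.66 and 1.78 CPM in the Eµ-PRMT5 spleens and at 2.10, 0.792, 14.5 and 18.8 CPM in the Eµ-TCL1 spleens. Only Eµ-TCL1 spleen 2 lay within the Eµ-PRMT5 range. Eµ-PRMT5 was lower by a log2 change of -2.99 ± 1.02, with an unadjusted p of 0.0120 and an adjusted p of 0.196 in edgeR's quasi-likelihood test. DESeq2 gave an adjusted p of 0.0369, in a contrast where it called 5.26% of genes. Within B cells, where the share of B cells in the spleen does not enter, the means were 3.57 ± 4.64 CPM (SD, n = 5) and 14.4 ± 12.9 CPM (SD, n = 4), a log2 change of -2.11 ± 1.08 (adjusted p = 0.312). Ccl22 in B cells had means of 0.533 ± 0.740 and 2.92 ± 1.81 CPM, a log2 change of -2.13 ± 1.20 (adjusted p = 0.358), with 3 of 5 Eµ-PRMT5 spleens at 0. Neither B-cell difference passed the test.

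No other member passed either. For Eµ-PRMT5 against Eµ-TCL1 spleens, the log2 change of Ccl5 in T cells was -0.61 ± 0.39, of Ccl4 in T cells 1.10 ± 0.74, of Ccl3 in neutrophils 0.49 ± 0.72 and of Cxcl16 in monocytes/macrophages 0.08 ± 0.42. For Eµ-PRMT5/TCL1 against Eµ-TCL1 spleens, Cxcl10 in monocytes/macrophages had means of 344 ± 277 CPM (SD, n = 4) and 56.1 ± 50.0 CPM (SD, n = 3), a log2 change of 2.42 ± 1.32 whose adjusted p in edgeR's quasi-likelihood test was 0.9998. The interval of 2 SE around it ran from -0.21 to 5.06. Besides Ccl17, the member below 0.05 before adjustment was Cxcl10 in neutrophils, lower in Eµ-PRMT5/TCL1 than in Eµ-PRMT5 by a log2 change of -3.53 ± 1.31 (unadjusted p = 0.0160, adjusted p = 0.9997 in edgeR's quasi-likelihood test). Without Eµ-PRMT5 spleen 4 that change was 0.27.

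In lymph nodes, which ask the same of the Eµ-TCL1 and Eµ-PRMT5/TCL1 mice, 0 of 19 member tests were called by edgeR's quasi-likelihood test and 0 by DESeq2, 3 had an unadjusted p under 0.05 (8.83% of the tests over all genes), and 0% of all genes were called by edgeR in each of the 3 contrasts. Ccl22 in B cells was at 4.92, 17.3 and 4.81 CPM in Eµ-TCL1 lymph nodes 1 to 3 and at 1.48, 4.36, 3.45 and 1.48 CPM in Eµ-PRMT5/TCL1 lymph nodes 1 to 4. These levels rested on few cells, with Ccl22 in 2, 30 and 54 B cells of the Eµ-TCL1 and in 8, 28, 6 and 15 of the Eµ-PRMT5/TCL1 lymph nodes. The groups did not overlap, as for 7.13% of genes, while every member's groups overlapped in T cells (9.47% of genes had none) and in all cells (5.51%), and the difference was a log2 change of -1.73 ± 0.62 (unadjusted p = 0.0233, adjusted p = 0.580). Ccl17, its neighbour, had means of 6.85 ± 6.35 CPM (SD, n = 3) and 14.6 ± 4.34 CPM (SD, n = 4), a log2 change in the other direction of 1.10 ± 0.79 (adjusted p = 0.805). Cxcl9 over all cells was at 0.151, 0.629 and 0 CPM in Eµ-TCL1 and at 0, 3.44, 3.71 and 5.11 CPM in Eµ-PRMT5/TCL1 lymph nodes (log2 change 3.75 ± 1.60, adjusted p = 0.847). Ccl5 in T cells was at 8725 ± 1787 and 9864 ± 1319 CPM (log2 change 0.27 ± 0.26), and the groups overlapped.

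The 7 mice with both tissues allowed spleen and lymph node to be compared within a mouse. For each genotype separately, edgeR's quasi-likelihood test with the mouse as a block called 0 of 40 member tests, with 4 at an unadjusted p under 0.05 (6.38% of the tests over all genes). It called 0.00925% of genes in the T cells of Eµ-PRMT5/TCL1 mice and 0% in the other 5 contrasts. Ccl4 in the B cells of Eµ-TCL1 mice was the only member whose tissues did not overlap, which 8.24% of genes did not in their T cells and 8.82% in all cells, and 1.84%, 4.94% and 2.95% in the B cells, T cells and all cells of Eµ-PRMT5/TCL1 mice. DESeq2 and the test without a filter on low counts each called 1 member test, in both cases Ccl4 in B cells.

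Ccl4 in B cells was higher in the lymph node than in the spleen of every Eµ-TCL1 mouse. The spleen and lymph node values were 1.75 and 16.6 CPM, 0.243 and 3.51 CPM, and 0.912 and 12.7 CPM in the 3 mice. The tissues of these 3 mice did not overlap, as for 7.69% of genes, while Eµ-TCL1 spleen 3, which has no lymph node library, held 3.72 CPM. The log2 change was 3.55 ± 0.76 (unadjusted p = 0.000993, adjusted p = 0.540 in edgeR's quasi-likelihood test). DESeq2 called it in a contrast where it called 0.486% of genes, and edgeR without the filter gave an adjusted p of 0.0402 where 0.109% of genes were called. In the Eµ-PRMT5/TCL1 mice the pairs were 0.368 and 0.614 CPM, 26.3 and 34.6 CPM, 3.57 and 27.9 CPM, and 4.95 and 0.862 CPM, with 3 of 4 higher in the lymph node and a log2 change of 0.68 ± 0.68. The difference between genotypes in this tissue effect was -2.88 ± 0.99 (unadjusted p = 0.0167, adjusted p = 1 in edgeR's quasi-likelihood test). No member was called for such a difference, nor any gene (0%), and 2 of 20 member tests had an unadjusted p under 0.05, beside 1.46% of the tests over all genes.

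These Ccl4 levels rested on few cells. The 64 UMIs of Eµ-TCL1 lymph node 1 were in 3 of its 379 B cells, 41 of them in 1 cell, and the 38 UMIs of lymph node 2 were in 5 cells. In lymph node 3 they were in 35 cells. Over all libraries 311 of 39543 B cells held the 2092 Ccl4 UMIs of the class, and the top 1% of cells held 83.2% to 100% of them in each library. In 5 of 7 lymph nodes and 13 of 13 spleens the B-cell level did not exceed that of the empty droplets.

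**Figure D4:**
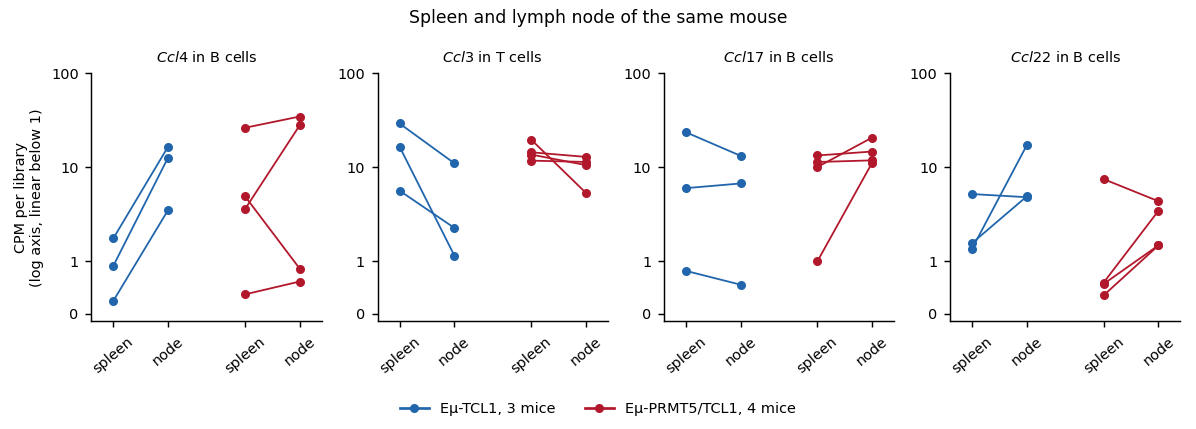
CPM in the spleen and the lymph node of the same mouse (y axis, logarithmic above 1 and linear below), with 1 line per mouse, for Ccl4, Ccl17 and Ccl22 in B cells and Ccl3 in T cells. Ccl4 is higher in the lymph node of each Eµ-TCL1 mouse, and Ccl3 in T cells is lower in the lymph node of all 7 mice.

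Ccl3 in T cells was lower in the lymph node of each mouse. Its spleen and lymph node values were 16.6 and 1.15 CPM, 29.2 and 11.0 CPM, and 5.65 and 2.27 CPM in the Eµ-TCL1 mice, a log2 change of -2.27 ± 0.54 (unadjusted p = 0.00186, adjusted p = 0.829). In the Eµ-PRMT5/TCL1 mice the pairs were 19.7 and 5.35 CPM, 11.8 and 11.4 CPM, 13.7 and 10.6 CPM, and 14.4 and 12.9 CPM, a log2 change of -0.38 ± 0.44. The lymph node value was thus the lower in 7 of 7 mice, although neither genotype passed the test. In B, T and all cells, no other member went 1 way in all 7 mice. No share of all genes is given beside this count. The empty droplets held a median of 16.5 CPM of Ccl3 in spleens (range 4.82 to 53.5) and 7.75 CPM in lymph nodes (5.51 to 20.2), and the T cells exceeded those of their own library in 4 of 13 spleens and 3 of 7 lymph nodes. Their part in the tissue difference was not tested. In the same T cells the log2 change of Ccl5 was -0.48 ± 0.39 and 0.38 ± 0.35 in the Eµ-TCL1 and Eµ-PRMT5/TCL1 mice. Ccl17 in B cells was higher in the lymph node in 4 of 4 Eµ-PRMT5/TCL1 mice, with a log2 change of 1.11 ± 0.50 (adjusted p = 0.695), and in 1 of 3 Eµ-TCL1 mice.

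T cells were a mixture whose makeup differed between libraries, with CD8 cells at 31.2% to 96.3% of the class in spleens, so CD8 and CD4 cells of the same spleen were compared in the 8 spleens with 20 of each. Ccl5 was higher in CD8 cells in 7 of 8 spleens, with medians of 10895 and 6131 CPM and a log2 change of 1.24 ± 0.37 (adjusted p = 0.0259 over 8582 genes in edgeR's quasi-likelihood test). Ccl4 was higher in CD8 cells in 6 of 8, with medians of 48.2 and 23.5 CPM and a log2 change of 1.01 ± 0.34 (adjusted p = 0.0464). These 2 members were called where 23.8% of genes were, no member's libraries were free of overlap (1.63% of genes), and both calls were lost without Eµ-PRMT5 spleen 1 or without Eµ-PRMT5 spleen 2. With Eµ-PRMT5 spleen 3 left out the count was 1, as with Eµ-TCL1 spleen 1 left out, and likewise for spleens 1 and 4 of the double-transgenic mice. In Eµ-PRMT5 spleens 1, 2 and 3 the CD4 and CD8 values of Ccl5 were 1257 and 7699 CPM, 3464 and 10700 CPM, and 1360.4 and 12597 CPM. In Eµ-TCL1 spleen 1 they were 12964 and 21590.1 CPM. In the 4 Eµ-PRMT5/TCL1 spleens they were 8798 and 9570.4 CPM, 14825 and 11090.1 CPM, 11304 and 13023 CPM, and 3321 and 4358 CPM. The 4 lowest CD4 values were those of the Eµ-PRMT5 spleens and of Eµ-PRMT5/TCL1 spleen 4, and the genotypes were not compared here by a test. The numbers of CD4 cells ranged from 26 to 974.

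Cxcl10 was not called between CD8 and CD4 cells over the 8 spleens (log2 change -0.14 ± 0.43, adjusted p = 0.862 in edgeR's quasi-likelihood test). The CD4 and CD8 values were 195 and 70.9 CPM, 66.9 and 17.8 CPM, and 154 and 33.8 CPM in Eµ-PRMT5 spleens 1, 2 and 3, 11.2 and 22.9 CPM in Eµ-TCL1 spleen 1, and 13.3 and 22.7 CPM, 5.44 and 32.8 CPM, 27.2 and 50.7 CPM, and 30.5 and 36.2 CPM in Eµ-PRMT5/TCL1 spleens 1 to 4. CD4 cells were thus the higher in 3 of 3 Eµ-PRMT5 spleens and the lower in the other 5. The empty droplets of Eµ-PRMT5 spleens 1, 2 and 3 held 22.6, 33.2 and 52.1 CPM, below the CD4 value of each, while the CD8 values of spleens 2 and 3 lay below them. Those of Eµ-TCL1 spleen 1 held 23.9 CPM, above both of its values, and those of Eµ-PRMT5/TCL1 spleens 1 to 4 held 8.40, 54.3, 55.1 and 40.8 CPM, below both values in spleen 1 and above both in the other 3. The part of free RNA in these ratios was not tested. Of the receptors and partners, Ccr8 and Ifng were lower in CD8 than in CD4 cells, by -2.98 ± 0.40 and -1.13 ± 0.32, and of the other chemokines Xcl1 was higher, by 1.28 ± 0.36.

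**Figure D5:**
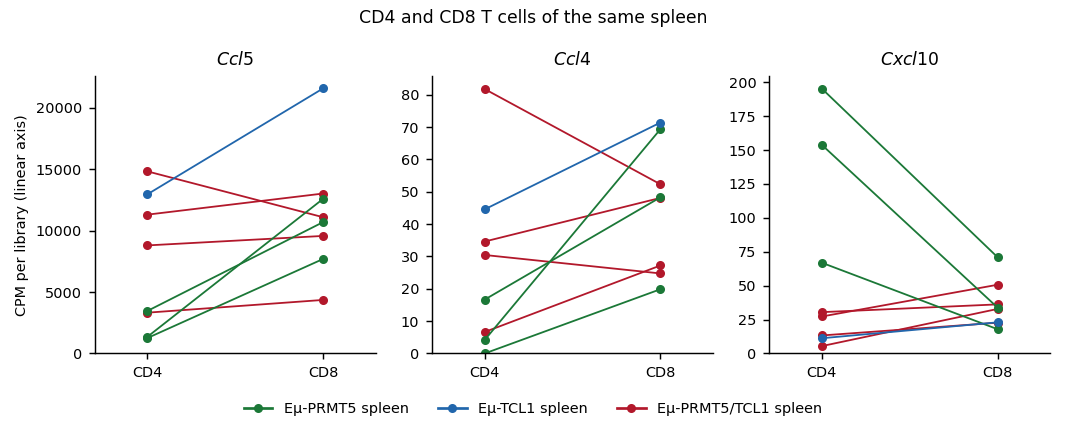
CPM of Ccl5, Ccl4 and Cxcl10 (y axis, linear) in CD4 and CD8 T cells, with 1 line per spleen colored by genotype. Ccl5 is higher in CD8 cells in 7 of 8 spleens, and Cxcl10 is lower in CD8 than in CD4 cells in the 3 Eµ-PRMT5 spleens and higher in the others.

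The genes whose levels followed a member most closely over libraries are given as descriptions, over 14 to 20 libraries that share depth and tissue differences. For Cxcl9 in monocytes/macrophages they were Psmb10, an immunoproteasome subunit (Pearson r = 0.93), and Aif1 (0.92), and for Cxcl10 they were Serpina3g (0.90) and Dera (0.88). For Cxcl16 they were Traf6 (0.89) and Ap3d1 (0.87). For Ccl3 in neutrophils they were Tmem33 (0.84) and Nfkbiz, a regulator of NF-kB (0.83). For the T-cell members they were Plac8 (0.74) with Ccl5, and Pofut2 (0.73) and Ufm1 (0.70) with Ccl4. For the B-cell members they were Sapcd1 (0.84) and Nsa2 (0.76) with Ccl17, and Etl4 (0.71) and Sel1l (0.68) with Ccl22.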

How the data were processed

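The authors deposited unfiltered UMI count matrices of 10x Genomics 3′ libraries. Per the labels, Cell Ranger 2.0.1, Seurat 2.2.1 and GRCm38 were used, whereas the matrix headers name version 3.1.0. Here, cells were barcodes above 10% of the 99th percentile of UMIs of the top 3000 barcodes (1745 to 4399 UMIs); those with under 200 genes or over 10% of UMIs from mitochondria were dropped, and 3542 likely doublets were removed with Scrublet (scanpy 1.11.5). Cells were classed with at least 3 UMIs of at least 2 markers and 75% of marker UMIs from 1 class. Counts were summed per class and library (at least 20 cells) and tested in edgeR 4.0.16 (quasi-likelihood, TMM, filterByExpr, Benjamini-Hochberg over all genes, threshold 0.05), with the library or mouse as a block for classes or tissues; SE are on the log2 scale. DESeq2 1.42.0 was an alternative. The labels give separate mice in each group; replicate numbers do not pair mice. Each library totalled 9348090 to 72440900 UMIs. Floors (3 counts) cover counting error only. Named genes were the 8 members, Ccr4, Cxcr3 and Cxcr6, at most 4 called genes per list and comparison by lowest p, and for likeness the 2 genes with the highest Pearson r of log2 CPM. The members and lists were chosen with earlier results of these data known. On simulated counts, 74% of genes changed 4-fold were called between Eµ-PRMT5 and Eµ-TCL1 spleen B cells (11940 genes), and 92% of 2-fold changes between B and T cells (10520 genes). The changed genes were drawn from all but the least expressed. These shares therefore need not hold for members with few UMIs held by few cells. Some genes that this rule names are not reported here.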

Additional observations from a re-analysis of the deposited data

Results flagged for a closer look

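For normally distributed values, chance alone sets a library of a group of 4 or 5 apart by this measure in about 1 of 20 groups. CPM values, some of them at 0, need not be distributed so. The same library and gene can also count in a class and again in all cells. The number of flags can therefore not be weighed against that rate. Of 57 groups of 4 or 5 libraries, 14 held a library whose gap to its neighbour took up most of the group's range. Eµ-PRMT5 spleen 4 accounted for 5 of them: Ccl4 in T cells at 262 CPM (next 56.5), Cxcl9 in monocytes/macrophages at 382 CPM (next 0.620) and in all cells at 63.9 CPM (next 3.43), Cxcl10 in monocytes/macrophages at 577 CPM (next 79.9) and Ccl22 in all cells at 1.16 CPM (next 0.316). In the same group, spleen 5 was the highest for Ccl17 in B cells at 11.7 CPM (next 2.90) and the lowest for Cxcl16 in monocytes/macrophages at 27.1 CPM (next 129). Eµ-PRMT5/TCL1 spleen 1 was the highest for Ccl22 in B cells at 7.49 CPM (next 0.594) and in all cells at 6.66 CPM (next 0.361); its title carries the suffix RT, and the B cells of the other 3 spleens of its group held 0.350 to 0.594 CPM.

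In the other groups, Eµ-PRMT5/TCL1 spleen 3 had Ccl3 in neutrophils at 486 CPM (next 92) and spleen 2 had Cxcl9 in all cells at 34.3 CPM (next 6.05). Eµ-TCL1 spleen 1 had Cxcl9 in all cells at 9.22 CPM (next 0.852). In Eµ-PRMT5/TCL1 lymph nodes, Ccl3 in all cells was at 37.4 CPM in lymph node 3 (next 7.59), and Cxcl16 in all cells was at 11.9 CPM in lymph node 1 (next 3.39).

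Of 32 pairs of groups compared for opposite directions, 1 was flagged, for Cxcl10 in CD8 over CD4 T cells. The log2 ratio averaged 1.06 ± 0.93 (SD, n = 4) in Eµ-PRMT5/TCL1 spleens. It averaged -1.82 ± 0.35 (SD, n = 3) in the Eµ-PRMT5 spleens with enough cells, 3 of the 5. The spleens counted of a genotype lay on the same side of 0. The values rested on few cells, with 27, 108, 26 and 147 CD4 cells in Eµ-PRMT5/TCL1 spleens 1 to 4. The difference of 2.88 between the genotypes was not tested. The empty droplets held more Cxcl10 than the CD8 cells of Eµ-PRMT5 spleens 2 and 3 and than both subsets of Eµ-PRMT5/TCL1 spleens 2, 3 and 4.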

How the results depend on the processing

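Of the counts of called members and shares of cells, 638 values under alternatives stayed on the same side of their threshold or within 1.5 times. Of the exceptions, DESeq2 called 1 member, Ccl17, between Eµ-PRMT5 and Eµ-TCL1 spleens over all cells, and 1, Ccl4, between Eµ-TCL1 lymph node and spleen B cells, where edgeR without the filter also called 1. Without that filter, which let more members be tested, 7 members were called between B cells and monocytes/macrophages, 8 between B cells and neutrophils and 4 between T cells and neutrophils. Between monocytes/macrophages and neutrophils 4 were called with barcodes of at least 500 UMIs and with doublets kept. Leaving out a library gave 2 to 4 calls between T cells and monocytes/macrophages. Between CD8 and CD4 cells it gave 0 to 2, and the count was 0 with barcodes of at least 500 UMIs, 1 under the stricter marker rule and 0 without the replicate block of the library. The share of spleen monocytes/macrophages with Cxcl16 moved to 11.4% on thinning. The log2 change of Cxcl10 in neutrophils, Eµ-PRMT5/TCL1 against Eµ-PRMT5, ran from -4.23 to 0.27 when a library was left out, the latter without Eµ-PRMT5 spleen 4. That of Ccl5, B cells against monocytes/macrophages, became 0.18 with doublets kept and ran from -0.61 to 0.10 when a library was left out, the latter without Eµ-PRMT5 spleen 4, and that of Cxcl10, T cells against neutrophils, became 0.21 in DESeq2 and ran from -0.69 to 0.11, the latter without that library. None of these was called, and the cause was not tested. Monocyte/macrophage contrasts with Eµ-TCL1 could not be fitted under the stricter rule.

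Same-numbered spleens are different mice, and over 12 pairs their deviations correlated by -0.49 to 0.19, with 4 of 13 libraries closest to their own number. With the replicate number as a block, 0 members were called between genotypes. Another scaling shifted the median of all genes by over 0.1 (log2) only between B cells and neutrophils (0.11), T cells and monocytes/macrophages (0.11) and T cells and neutrophils (0.15). Ccl22 and Ccl17 rested on 1092 and 3284 B-cell UMIs over 20 libraries. Chosen after seeing the data, leaving out Eµ-PRMT5 spleen 4 lowered the share of Cxcl9 cells that also held Cxcl10 from 86.4% to 50% in neutrophils and from 46.3% to 31.2% in monocytes/macrophages.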

Other observations

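Monocytes/macrophages with UMIs of the complement genes C1q, which mark tissue macrophages, reached 20 cells in only 2 spleens. Cxcl9 stood at 470 CPM in the C1q-positive and 267 CPM in the C1q-negative cells of Eµ-PRMT5 spleen 4, and at 127 and 59.4 CPM in those of Eµ-TCL1 spleen 1. The C1q-negative cells of the other 9 spleens with enough of them held at most 88.4 CPM. Cxcl16 was at 214 and 91.0 CPM in Eµ-PRMT5 spleen 4 and at 118 and 51.1 CPM in Eµ-TCL1 spleen 1. No test was run, since fewer than 3 libraries held enough C1q-positive cells.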
